A study of Mus musculus with 40 samples.

Results

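*Abca1*, *Abcg1*, *Abcg5* and *Abcg8* encode ATP-binding cassette (ABC) transporters that move sterol out of cells, and they are described here across the small intestine and the liver of mice after bowel surgery. They were picked by name, with no threshold on a measured value but with earlier results of these data known. They are 4 of the 15958 genes in the table. ABCA1 passes cholesterol and phospholipid from the cell to lipid-poor apolipoprotein A1, the starting step in making high-density lipoprotein (HDL). ABCG1 adds cholesterol to HDL particles that have already formed. ABCG5 and ABCG8 work only as a heterodimer, which sits in the apical membrane of enterocytes and the canalicular membrane of hepatocytes and returns plant sterols and cholesterol to the gut lumen and the bile. All of these genes are known targets of the liver X receptors (LXRs), nuclear receptors that bind oxysterols and act as heterodimers with retinoid X receptors (RXRs).

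RNA was sequenced from whole duodenum, ileum and liver of male wild-type C57BL/6 mice that were operated on at 8 weeks of age. Sham vehicle mice had a sham operation and vehicle. SBR vehicle mice had a small bowel resection (SBR, 50-60% of the small bowel in the labels, a larger share in the study's methods) and vehicle, and SBR WUSTL0717 mice had the same resection and WUSTL0717, a gut-restricted LXR agonist, at 30 mg/kg. Dosing was daily and by mouth, began 3 weeks after surgery and lasted 7 weeks, so vehicle or compound had been given to every animal. No sham-operated mice given WUSTL0717 were analysed here, so treatment can be compared only within resected animals. Each intestinal region had 3 sham vehicle, 4 SBR vehicle and 4 SBR WUSTL0717 libraries, and the liver had 5, 8 and 5. The ileum was taken beyond the anastomosis, and in whole tissue a fall in the number of cells of a type and a fall in RNA per cell cannot be told apart. The labels number the libraries within each group but do not say which duodenum and ileum came from the same mouse.

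Values are log2(TPM + 1), where TPM is the transcript abundance of a gene scaled to a fixed library total, after a batch correction that shifted and rescaled every gene separately in the 22 intestinal and the 18 liver libraries. A level is therefore compared within a gene, and within the intestine or within the liver, and a fold given below is a fold on this scale. A gene was called changed at an adjusted p below 0.05 (limma, Benjamini-Hochberg over all genes tested in that comparison). All 4 transporters passed the filter on low values (a mean log2 value of at least 1) in every comparison. In sham vehicle mice 4 of 5 duodenal marker genes were called higher in the duodenum and 4 of 4 ileal markers higher in the ileum. The same test called 7 of 7 pancreatic acinar markers higher in the sham duodenum, where their summed TPM was 90.8 to 1431, and 1 liver library, SBR vehicle replicate 7, had an acinar sum of 3336 against 26.95 to 41.1 in the other liver libraries. Since the batch correction brought gene levels in liver and intestine together, the liver label was not checked against hepatocyte levels. Marker sums, here and below, add corrected values of separately shifted genes and are not measured abundances. They are compared only within the intestine or within the liver. For the enterocyte list they were 287 to 480 in sham duodenum and 1151 to 1402 in sham liver. A list carries the name of a cell type and is not read as a sign of that type in another tissue.

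In the mouse genome (GRCm38), *Abca1* lies on chromosome 4 (53030787 to 53159895, minus strand) and *Abcg1* on chromosome 17 (31057675 to 31117988, plus strand). *Abcg5* (84658234 to 84683011, minus strand) and *Abcg8* (84676302 to 84700333, plus strand) lie head to head further along chromosome 17. An annotated upstream start of *Abcg8* lies inside *Abcg5*, so that the gene models overlap over 6710 bases, of which 82 are exonic in both. Whether reads were counted by strand is not given in the sources used here, and reads from those 82 bases could not then be assigned to either gene with certainty. The sequence shown first is the stretch just upstream of *Abca1*, the transporter of the 4 with the largest difference with WUSTL0717 in the duodenum. In the ileum its difference (2.79) was close to those of *Abcg5* (2.68) and *Abcg8* (2.60), and each gene was rescaled separately. The second sequence is the whole stretch that separates the RefSeq starts of *Abcg5* and *Abcg8*, because the values of these genes moved together. Both are from RefSeq (GRCm38.p6) and read 5′ to 3′, the first on the *Abca1* strand (chr4:53159896-53160145) and the second on the *Abcg8* strand (chr17:84683012-84683120).
*Abca1* upstream: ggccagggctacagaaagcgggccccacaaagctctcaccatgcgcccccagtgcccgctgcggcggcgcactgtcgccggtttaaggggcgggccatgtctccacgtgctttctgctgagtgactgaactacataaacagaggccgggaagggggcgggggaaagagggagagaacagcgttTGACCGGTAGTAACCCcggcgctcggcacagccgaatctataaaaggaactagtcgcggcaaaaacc
*Abcg5*-*Abcg8* spacer: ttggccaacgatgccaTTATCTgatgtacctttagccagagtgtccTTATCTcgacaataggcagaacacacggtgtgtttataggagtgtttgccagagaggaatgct

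Capitals in the *Abca1* sequence mark the closest match in that window to DR4, the direct repeat of AGGTCA with a 4-base spacer that LXR-RXR heterodimers are known to bind. It lies at bases -67 to -52 on the strand opposite the gene and has 3 mismatches, and 18.5% of 32851 promoter windows of the same length held a match at least as close on either strand. In the windows of *Abcg5* and *Abcg8* the closest DR4 match had 4 mismatches, and 70.6% of promoter windows held one with 4 or fewer. Capitals in the spacer mark 2 copies of AGATAA, a form of the GATA motif, read on the opposite strand. At least 1 copy stood in 9.99% of promoter windows and at least 2 in 0.938%. These are letter matches in short windows and were not related to any binding data.

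Treated and vehicle-treated resected mice were compared to see whether WUSTL0717 acts on LXR target genes in the intestine that remains. In the ileum all 4 transporters were higher in each of the 4 SBR WUSTL0717 libraries than in any of the 4 SBR vehicle libraries. *Abca1*, *Abcg1* and *Abcg5* rose, by 6.91-fold, 4.92-fold and 6.42-fold, whereas *Abcg8* missed the threshold with a 6.05-fold difference. The 3 called genes stand against 11 called of 15766 genes tested, or 0.0698%, all of them higher, and groups that did not overlap, with treatment higher, were found for 2.56% of genes. By unadjusted p below 0.05 all 4 transporters passed, both in limma and in an unmoderated two-sample test, but the latter called none of them after adjustment.

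*Abca1* read 4.85, 4.07, 4.78 and 4.90 in the ileum of SBR vehicle mice and 6.55, 7.97, 7.43 and 7.81 after WUSTL0717. Treated and vehicle libraries were far apart, and within each group 1 library, vehicle replicate 2 and treated replicate 1, was clearly the lowest. The difference was 2.79 ± 0.34 on the log2 scale (SE, n = 4 and 4, limma adjusted p = 0.0148), and among all genes tested it had the third lowest p. *Abcg1* read 2.42, 2.50, 2.90 and 2.33 with vehicle and 3.84, 5.50, 4.85 and 5.15 with WUSTL0717. Its vehicle libraries lay close together and the treated ones were more widely spread. The difference was 2.30 ± 0.33 (SE, limma adjusted p = 0.0274).

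*Abcg5* read 5.84, 5.42, 5.07 and 5.93 with vehicle and 7.23, 8.76, 8.12 and 8.88 with WUSTL0717, a difference of 2.68 ± 0.36 (SE, limma adjusted p = 0.0203). *Abcg8* read 5.75, 5.19, 4.88 and 6.25 with vehicle and 6.70, 8.75, 8.31 and 8.70 with WUSTL0717, a difference of 2.60 ± 0.46 (SE, limma adjusted p = 0.0951). For each transporter WUSTL0717 replicate 1 was the lowest treated library, and for *Abcg8* it lay close to the highest vehicle library. An exact permutation test (two-sided) gave p = 0.0286 for each transporter, the smallest that 4 against 4 libraries allow. Without WUSTL0717 replicate 1, all 4 were called (limma adjusted p = 0.0027 for *Abca1*, *Abcg1* and *Abcg5*, and 0.00668 for *Abcg8*), and without any other single library *Abcg1* (adjusted p from 0.0556 to 0.126) and *Abcg5* (0.0525 to 0.0989) were not. *Abca1* kept its call in 6 of the 8 fits that left out 1 library and lost it without SBR vehicle replicate 2 (limma adjusted p = 0.0744) or WUSTL0717 replicate 4 (0.0518), while all of the differences remained between 2.08 and 3.09 on the log2 scale. In the same ileal comparison 0 of 8 enterocyte and 0 of 11 macrophage markers were called, with enterocyte sums of 1802 to 2698 TPM with vehicle and 2309 to 3236 TPM with WUSTL0717, and macrophage sums of 561 to 1217 and 423 to 625 TPM. Hepatocyte markers, 0 of 7 called and 6 of 7 above 0 (*Cyp2e1* 2.32, adjusted p = 0.485, without overlap), had sums of 1642 to 2804 TPM with vehicle and 2192 to 3169 TPM with WUSTL0717, apart from WUSTL0717 replicate 2 at 11659 TPM, which was also the highest library for *Abca1*, *Abcg1* and *Abcg8*. Without that library the differences were 2.61 for *Abca1* (adjusted p = 0.0262), 2.08 for *Abcg1* (0.0556), 2.51 for *Abcg5* (0.0525) and 2.39 for *Abcg8* (0.187).

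**Figure D1:**
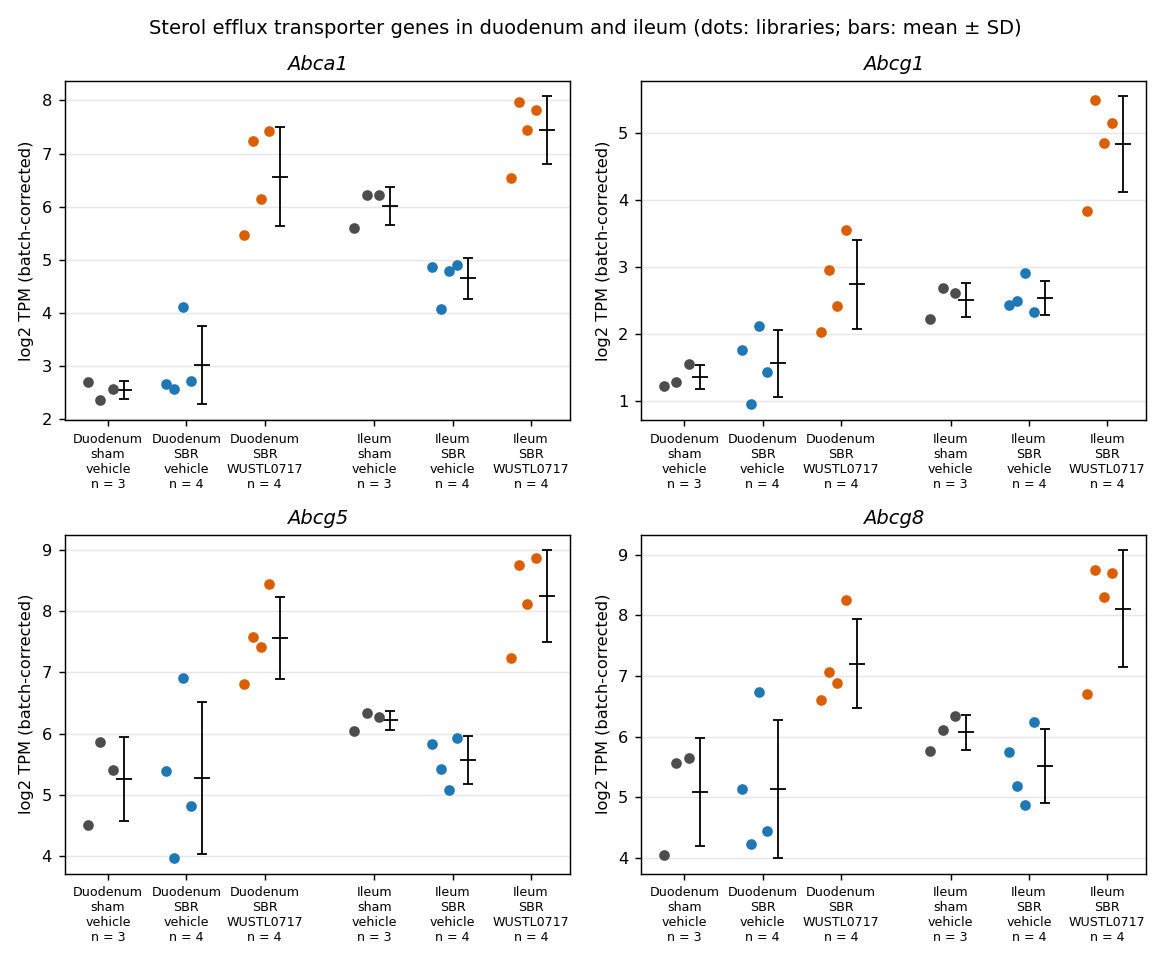
Log2(TPM + 1) of *Abca1*, *Abcg1*, *Abcg5* and *Abcg8* in each of the 22 intestinal libraries, by region and group, with points for single libraries and bars for group means and SD. In the ileum the 4 SBR WUSTL0717 libraries lie above the 4 SBR vehicle libraries for each gene, and in the duodenum SBR vehicle replicate 3 reaches the treated range for all but *Abca1*.

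In the duodenum *Abca1* rose with WUSTL0717 by 11.7-fold. It read 2.66, 2.56, 4.12 and 2.70 in SBR vehicle mice and 5.46, 7.23, 6.14 and 7.43 after treatment. Vehicle replicate 3 stood well above the other vehicle libraries and still below the lowest treated one, and groups without overlap and with treatment higher were 2.11% of genes here. The difference was 3.55 ± 0.51 (SE, n = 4 and 4, limma adjusted p = 0.00975), with an exact permutation p of 0.0286. Called genes were 0.272% of the 15069 tested here, 40 of the 41 higher, so the 1 transporter called of 4 is read against that share.

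*Abcg1* read 1.75, 0.94, 2.11 and 1.43 with vehicle and 2.03, 2.95, 2.41 and 3.56 with WUSTL0717 in the duodenum. *Abcg5* read 5.38, 3.96, 6.91 and 4.82 with vehicle and 6.82, 7.59, 7.41 and 8.44 with treatment, and *Abcg8* read 5.13, 4.22, 6.73 and 4.44 against 6.60, 7.07, 6.88 and 8.26. For these 3 genes a single vehicle library, replicate 3, overlapped the treated group, and it passed only treated replicate 1. The differences were 1.18 ± 0.37 for *Abcg1* (SE, limma adjusted p = 0.462), 2.30 ± 0.61 for *Abcg5* (adjusted p = 0.249) and 2.07 ± 0.61 for *Abcg8* (adjusted p = 0.368), with an exact permutation p of 0.0571 each. All 4 transporters had an unadjusted p below 0.05 in limma and in the unmoderated two-sample test, the latter calling 0 after adjustment.

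Duodenal *Abca1* kept its call in 8 of 8 fits that left out 1 library (limma adjusted p from 0.00586 to 0.0486). Without SBR vehicle replicate 3 the differences were 3.92 for *Abca1*, 1.37 for *Abcg1*, 2.84 for *Abcg5* and 2.60 for *Abcg8*, and the last 3 still missed the threshold (limma adjusted p = 0.385, 0.0861 and 0.132). That library also had the highest enterocyte marker sum of its group, 1003 TPM. Pancreatic acinar markers were above 0 in the same comparison for 7 of 7 genes, none called, with summed TPM of 22.1 to 943 with vehicle and 182 to 1652 with WUSTL0717, and enterocyte markers were above 0 for 3 of 8 genes, none called, with *Fabp2* at 1.59, *Slc5a1* at -1.06 and *Anpep* at -0.84 each without overlap and sums of 648 to 1003 and 691 to 1608 TPM. The part of these markers in the duodenal differences was not tested.

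**Figure D2:**
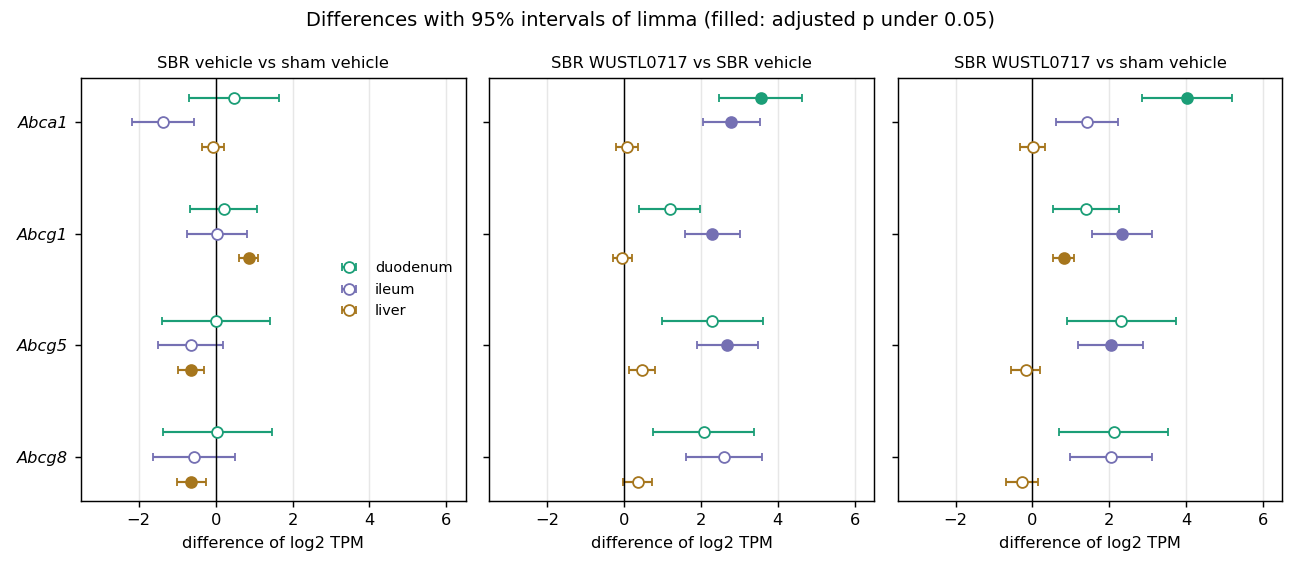
Difference in log2(TPM + 1) of each transporter for SBR WUSTL0717 against SBR vehicle, SBR vehicle against sham vehicle and SBR WUSTL0717 against sham vehicle, in duodenum, ileum and liver, as points with 95% confidence intervals from limma. In treated against vehicle-treated resected mice the intestinal intervals lie above 0, from 0.38 to 1.98 for duodenal *Abcg1* up to 2.46 to 4.64 for duodenal *Abca1*, and in the liver those of *Abca1*, *Abcg1* and *Abcg8* include 0.

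Resection itself was compared in vehicle-treated mice, which share the SBR vehicle libraries with the treatment comparison. In the duodenum no transporter differed by the test, against 0% of all genes called, and none reached an unadjusted p below 0.05 in limma or the unmoderated two-sample test. Sham vehicle libraries read 2.70, 2.35 and 2.57 for *Abca1*, 1.21, 1.27 and 1.55 for *Abcg1*, 4.51, 5.87 and 5.40 for *Abcg5*, and 4.05, 5.56 and 5.64 for *Abcg8*. Each of these sets overlaps the SBR vehicle values given above, and 9.66% of all genes had no overlap. The differences were 0.47 for *Abca1*, 0.21 for *Abcg1*, 0.01 for *Abcg5* and 0.05 for *Abcg8* (limma adjusted p from 0.663 to 0.996), where the median gene was 0.36 lower after resection. Duodenal macrophage marker sums were 337 to 1421 TPM in sham and 124 to 316 TPM in SBR vehicle libraries, with 2 of 10 markers above 0 in the difference and none called, while enterocyte sums were 287 to 480 TPM and 648 to 1003 TPM, without overlap, with 7 of 8 markers above 0 and none called (*Fabp2* 1.86, *Slc5a1* 1.78 and *Anpep* 1.41, adjusted p = 0.278, 0.235 and 0.278). The part of either cell type in these values was not tested.

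In the ileum the sham vehicle libraries read 5.60, 6.22 and 6.22 for *Abca1*, all above the highest SBR vehicle library at 4.90. The difference of -1.36 ± 0.37 (SE, n = 4 and 3) did not pass over all genes (limma adjusted p = 0.197), and the exact permutation p was 0.0286, the smallest possible here. *Abcg5* read 6.04, 6.33 and 6.27 in sham libraries, again above every SBR vehicle library, with a difference of -0.65 (limma adjusted p = 0.776, exact permutation p = 0.0571). *Abcg8*, at 5.76, 6.11 and 6.34 in sham libraries, overlapped the vehicle group with a difference of -0.55, and *Abcg1*, at 2.22, 2.69 and 2.62, differed by 0.03. Called transporters were 0 of 4 against 0.349% of genes, with 1 of 4 at an unadjusted p below 0.05 in limma and 2 of 4 in the unmoderated test, which called 0. The 2 without overlap, both lower after resection, compare with 2.77% of all genes. The same ileal comparison called 2 of 4 ileal marker genes higher after resection, *Slc10a2* (the apical bile acid transporter) by 2.02 and *Fabp6* by 2.05, and the summed marker TPM was 130 to 160 in sham and 409 to 506 in SBR vehicle libraries. Whether this shift bears on the lower *Abca1* values was not tested.

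Against sham vehicle mice, the SBR WUSTL0717 libraries lay above every sham library for all 4 transporters in both regions. Groups without overlap and with treatment higher were 5.59% of duodenal and 9.46% of ileal genes tested. In the duodenum *Abca1* rose by 4.02 (limma adjusted p = 0.0061), and the differences were 1.39 for *Abcg1*, 2.31 for *Abcg5* and 2.12 for *Abcg8* (adjusted p = 0.156, 0.149 and 0.183), where 0.737% of genes were called. The median gene was 0.32 lower in that comparison, and after subtracting each library's median the values were 4.38, 1.75, 2.67 and 2.48, with *Abcg1* (adjusted p = 0.0429) and *Abcg5* (0.0373) then called and *Abcg8* not (0.0514). In the ileum *Abcg1* rose by 2.33 (limma adjusted p = 0.00825) and *Abcg5* by 2.03 (0.0229), whereas *Abca1* at 1.43 (0.0744) and *Abcg8* at 2.04 (0.0552) missed the threshold, where 2.16% of genes were called. *Abcg1* kept its ileal call in 6 of 7 fits without 1 library (adjusted p = 0.0504 without sham vehicle replicate 1), and *Abcg5* kept its call in 2 of 7, without WUSTL0717 replicate 1 or 2 (otherwise adjusted p from 0.054 to 0.103). In the unmoderated two-sample test none of these calls with sham passed (adjusted p = 0.121 for duodenal *Abca1*, 0.164 for ileal *Abcg1* and 0.201 for ileal *Abcg5*). Enterocyte marker sums in the duodenum were 287 to 480 TPM in sham and 691 to 1608 TPM in treated libraries, without overlap, with 8 of 8 markers above 0 and 1 called (*Fabp2*, 3.45, limma adjusted p = 0.0262). In the ileum hepatocyte markers were above 0 for 7 of 7 genes with 1 called (*Cyp2e1*, 3.73, limma adjusted p = 0.0236), and their sums did not overlap, at 1741 to 2101 TPM in sham and 2192 to 11659 TPM in treated libraries. Others of that list, *Alb* (0.96), *Hnf4a* (0.48) and *Cps1* (0.04), had limma adjusted p = 0.632, 0.557 and 0.989. Ileal macrophage marker sums were 729 to 969 TPM in sham and 423 to 625 TPM in treated libraries, without overlap. In the duodenum they were 337 to 1421 and 134 to 350 TPM. The part of these markers in the differences from sham was not tested. Both of these comparisons use the treated libraries already described and are not separate evidence of the response.

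Of the 4 transporters only *Abca1* was called between the 2 regions after sham surgery. In sham vehicle mice *Abca1* was 11.1-fold lower in the duodenum than in the ileum (-3.47, limma adjusted p = 5.79e-05), with a mean of 2.54 ± 0.17 against 6.01 ± 0.35 (SD, n = 3). *Abcg1* was lower by 1.16 (adjusted p = 0.06), *Abcg5* by 0.96 (0.275) and *Abcg8* by 0.99 (0.298). All 4 genes had no overlap between regions, as 37.9% of genes did (30.8% with the duodenum lower), and 1 of 4 was called against 14.6% of all genes. With 3 libraries a side the exact permutation test cannot go below 0.1. The median gene was 0.52 lower in the duodenum, and relative to it the *Abca1* difference was -3.02 (limma adjusted p = 0.00038). Enterocyte marker sums were 287 to 480 TPM in sham duodenum and 2299 to 2455 TPM in sham ileum, with 4 of 8 called lower in the duodenum (*Anpep* -4.36, *Fabp2* -3.96, *Epcam* -1.90 and *Vil1* -1.26) and *Alpi* called higher (2.19), and their part in the transporter values was not tested. The sham calls over all genes split into 610 higher and 1721 lower in the duodenum, and 1177 and 843 after that centring.

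Under SBR vehicle the *Abca1* gap was -1.64 (limma adjusted p = 0.00383) and the *Abcg1* gap -0.98 (adjusted p = 0.0235), 2 of 4 called against 56.9% of genes, while *Abcg5* (-0.30) and *Abcg8* (-0.38) were not called. The *Abcg1* call was lost without ileum replicate 3 (-0.86, adjusted p = 0.0692), duodenum replicate 2 (-0.78, 0.0905) or duodenum replicate 4 (-0.94, 0.0542). The median gene was 0.98 lower in the duodenum in these groups, and relative to it neither *Abca1* (-0.71, adjusted p = 0.251) nor *Abcg1* (-0.05, 0.931) was called, and *Abcg5* (0.64) and *Abcg8* (0.55) changed direction. Under WUSTL0717 *Abcg1* was lower in the duodenum by 2.10 (adjusted p = 9.66e-05, 1 of 4 called against 55.9% of genes), and by 1.22 relative to the median gene (adjusted p = 0.0116). The gaps of *Abca1* (-0.88), *Abcg5* (-0.68) and *Abcg8* (-0.91) did not pass, although *Abca1* did without ileum replicate 1 (-1.17, adjusted p = 0.0361) or duodenum replicate 4 (-1.16, 0.0403), and *Abcg8* without ileum replicate 1 (-1.38, 0.043). Relative to the median gene the directions of *Abca1* (0.0062) and *Abcg5* (0.20) turned and *Abcg8* was at -0.028, none called. Cell-type markers differed between regions in these groups too. In the duodenum 6 of 6 smooth muscle markers were called lower under SBR vehicle (*Acta2* -2.05) and 3 of 6 under WUSTL0717, and 7 of 7 acinar markers were called higher under each. Of 8 enterocyte markers 4 were called lower (*Anpep* -2.97, *Epcam* -2.39, *Fabp2* -1.74 and *Vil1* -0.86) and 2 higher under SBR vehicle, and 3 lower and 1 higher under WUSTL0717. Hepatocyte list genes called lower in the duodenum under SBR vehicle and under WUSTL0717 were *Alb* (-3.02 and -3.13), *Cyp2e1* (-2.43 and -4.64), *Hnf4a* (-1.98 and -2.68) and *Serpina1c* (-0.97 and -1.19), and none was called higher. Of 11 macrophage markers 6 and 4 were called lower, and the part of these markers in the transporter gaps was not tested. Calls over all genes split into 1078 higher and 7990 lower under SBR vehicle and 1136 and 7759 under WUSTL0717, and after centring into 2637 and 2310 and into 2519 and 2218.

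Set in order over the 6 intestinal groups, *Abca1* ran from sham and SBR vehicle duodenum (2.54 and 3.01) through SBR vehicle and sham ileum (4.65 and 6.01) to treated duodenum (6.56) and treated ileum (7.44), and only the step between the 2 vehicle ileum groups had no overlap. *Abcg1* ran from 1.35 and 1.56 in sham and SBR vehicle duodenum to 2.51 and 2.54 in the corresponding ileum groups, 2.74 in treated duodenum and 4.84 in treated ileum, with gaps before the sham ileum and before the treated ileum. Treated duodenum and vehicle-treated ileum overlapped in *Abcg1*. *Abcg5* and *Abcg8* shared an order of sham duodenum (5.26 and 5.09), SBR vehicle duodenum (5.27 and 5.13), SBR vehicle ileum (5.56 and 5.52), sham ileum (6.22 and 6.07), treated duodenum (7.56 and 7.20) and treated ileum (8.25 and 8.11). For both of them the step up to the treated duodenum had no overlap, and for *Abcg5* also the step from SBR vehicle to sham ileum.

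No difference between the 2 regions in the response to WUSTL0717 passed over all genes. The duodenal effect minus the ileal effect was 0.76 for *Abca1* (95% interval from -0.53 to 2.05), -1.12 for *Abcg1* (-2.16 to -0.07), -0.39 for *Abcg5* (-1.91 to 1.14) and -0.53 for *Abcg8* (-2.18 to 1.12). No transporter was called (limma adjusted p = 1 each, against 0.0251% of genes). *Abcg1* alone had an unadjusted p below 0.05 in limma, and no transporter did in the unmoderated test. These intervals allow differences of over 1 log2 unit for each gene, and that of *Abcg1* lies below 0.

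**Figure D3:**
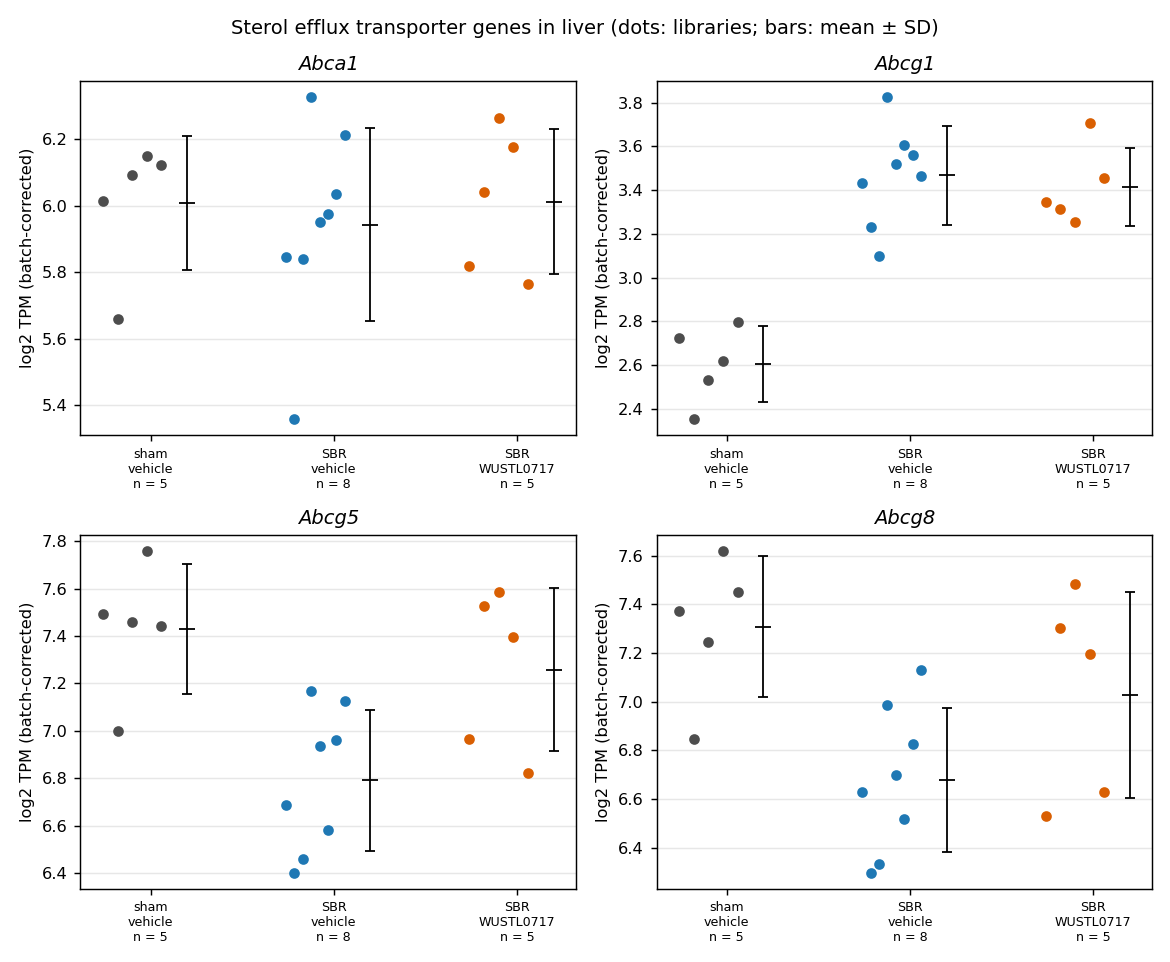
Log2(TPM + 1) of the 4 transporters in each of the 18 liver libraries, with points for single libraries and bars for group means and SD. *Abcg1* has all 8 SBR vehicle libraries (3.10 to 3.83) above the 5 sham libraries (2.35 to 2.80), and *Abcg5* and *Abcg8* are lower in SBR vehicle than in sham libraries with some overlap.

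In the liver resection changed 3 of the 4 transporters in vehicle-treated mice, *Abcg1* upward and *Abcg5* and *Abcg8* downward. This stands against 41.9% of 15896 genes called, 37.5% upward and 4.48% downward, so that a call is common in this comparison. *Abcg1* read 2.72, 2.35, 2.53, 2.62 and 2.80 in sham libraries and had a lowest value of 3.10, a median of 3.49 and a highest of 3.83 in SBR vehicle libraries. The groups did not overlap, as for 17.2% of genes (15.6% with resection higher), and *Abcg1* rose 1.82-fold (0.86 ± 0.12, SE, n = 8 and 5, limma adjusted p = 1.04e-05, exact permutation p = 0.000777, the smallest possible).

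*Abcg5* read 7.49, 7.00, 7.46, 7.76 and 7.44 in sham livers, against a lowest of 6.40, a median of 6.81 and a highest of 7.17 in SBR vehicle livers. *Abcg8* read 7.37, 6.85, 7.24, 7.62 and 7.45 against a lowest of 6.30, a median of 6.66 and a highest of 7.13. For both genes sham replicate 2 was the only sham library inside the SBR vehicle range. *Abcg5* fell by 0.64 (SE 0.16, limma adjusted p = 0.00416, exact permutation p = 0.00466) and *Abcg8* fell by 0.63 (SE 0.18, adjusted p = 0.00786, exact permutation p = 0.00544). *Abca1* read 6.01, 5.66, 6.09, 6.15 and 6.12 in sham libraries and 5.36 to 6.33 in SBR vehicle libraries, with a difference of -0.06 (adjusted p = 0.733). *Abcg1*, *Abcg5* and *Abcg8* kept their calls and directions in 13 of 13 fits that left out 1 library, including the fit without the library with the high acinar sum.

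The median liver gene was 0.25 higher after resection, and relative to each library's median *Abcg1* was higher by 0.56 (limma adjusted p = 2.97e-06), *Abcg5* lower by 0.95 (1.55e-05), *Abcg8* lower by 0.94 (9.25e-05) and *Abca1* lower by 0.37 (0.00327), the last then called as well. Over all genes, calls split into 5954 higher and 712 lower, and after centring into 3234 and 4594. In the same comparison 5 of 11 macrophage markers were called higher (*Cd68* by 0.99 and *Lyz2* by 1.13 among them) and 1 lower (*Cd163*, -1.20). Macrophage marker sums were 378 to 526 TPM in sham, 510 to 1012 TPM in SBR vehicle and 650 to 874 TPM in SBR WUSTL0717 livers, with no marker at 0. Of 7 hepatocyte markers 4 were called lower, with sums of 2747 to 3592 TPM in sham and 1563 to 3017 TPM in SBR vehicle livers. Of the 8 enterocyte list genes 4 were called higher (*Epcam* by 2.68, *Slc5a1* by 1.41, *Vil1* by 1.04 and *Krt20* by 0.27), with list sums of 1151 to 1402 TPM in sham and 1133 to 2182 TPM in SBR vehicle livers, and so were 2 of 6 smooth muscle markers (*Des* by 0.84 and *Tagln* by 0.34). *Alpi* (-0.0012) and *Cdh17* (0.035) of the enterocyte list were not called, and the list is not read as a sign of enterocytes in liver. The part of any of these marker lists in the *Abcg1*, *Abcg5* and *Abcg8* differences was not tested.

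With WUSTL0717 against SBR vehicle in the liver, 0 of 4 transporters were called, against 4.12% of genes. In treated livers *Abca1* read 5.82, 6.04, 6.26, 6.18 and 5.76, *Abcg1* 3.34, 3.32, 3.25, 3.71 and 3.45, *Abcg5* 6.96, 7.53, 7.58, 7.39 and 6.82, and *Abcg8* 6.53, 7.30, 7.48, 7.20 and 6.63. Each set overlaps the SBR vehicle values, and 1.54% of all genes had no overlap. The differences were 0.07 for *Abca1* (95% interval from -0.22 to 0.36), -0.05 for *Abcg1* (-0.30 to 0.19), 0.47 for *Abcg5* (0.12 to 0.81, limma adjusted p = 0.125) and 0.35 for *Abcg8* (-0.02 to 0.72, adjusted p = 0.327). *Abcg5* alone had an unadjusted p below 0.05, in limma and in the unmoderated test, with an exact permutation p of 0.0264, and it was called after centring (0.47, limma adjusted p = 0.0195). Calls over all genes in this comparison split into 231 higher and 424 lower, and into 1837 and 1294 after centring. In the same livers 2 of 11 macrophage markers rose (*Cd163* by 0.91 and *Clec4f*, a Kupffer cell marker, by 0.75, adjusted p = 0.037 and 0.0448). Of the 8 enterocyte list genes, 3 epithelial ones fell, *Epcam* by 1.10, *Vil1* by 0.69 and *Slc5a1* by 0.67 (adjusted p = 0.0161, 0.0146 and 0.0256), with list sums of 1133 to 2182 TPM with vehicle and 1643 to 2053 TPM with WUSTL0717. Hepatocyte markers were above 0 for 7 of 7 genes, none called (*Serpina1c* 0.58, adjusted p = 0.0695, and *Cyp2e1* 0.56, 0.0909), with sums of 1563 to 3017 TPM with vehicle and 2774 to 3603 TPM with WUSTL0717, the same direction as *Abcg5* and *Abcg8*. The part of these marker lists in the transporter values was not tested.

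Against sham livers, treated livers had *Abcg1* 0.81 higher (limma adjusted p = 0.00037, exact permutation p = 0.00794, 1 of 4 called against 28.7% of genes and, like 28.1% of genes, without overlap). The differences for *Abca1* (0.00), *Abcg5* (-0.17, adjusted p = 0.459) and *Abcg8* (-0.28, adjusted p = 0.269) did not pass, and centring, where the median gene was 0.27 higher, called 3 of the 4, with *Abcg1* at 0.51 (adjusted p = 0.00016), *Abcg5* at -0.47 (0.0332) and *Abcg8* at -0.58 (0.0271), and gave -0.30 for *Abca1* (0.0544). In this comparison 5 of 11 macrophage markers were called higher, with sums that did not overlap (378 to 526 TPM in sham and 650 to 874 TPM in treated livers), as were 2 of 8 enterocyte list genes (*Epcam* by 1.58 and *Slc5a1* by 0.74) and 1 of 6 smooth muscle markers (*Des* by 0.68), and 1 of 7 hepatocyte markers was called lower (*Serpina1c*, -1.06). Their part in the *Abcg1* difference was not tested. Calls over all genes split into 4417 higher and 144 lower, and after centring into 1694 and 1423. In order, *Abcg5* and *Abcg8* were lowest in SBR vehicle livers (6.79 and 6.68), intermediate in treated livers (7.26 and 7.03) and highest in sham livers (7.43 and 7.31), with neighbouring groups overlapping. *Abcg1* was lowest in sham livers (2.60) and overlapped between treated (3.41) and SBR vehicle livers (3.47), and the *Abca1* means were 6.01, 5.94 and 6.01 in sham, SBR vehicle and treated livers.

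The treatment effect was also compared between tissues. It was larger in the duodenum than in the liver by 3.48 for *Abca1* (limma adjusted p = 3.32e-06, exact permutation p = 0.0189), 1 of 4 called against 0.953% of genes. In the ileum it was larger than in the liver by 2.72 for *Abca1* (limma adjusted p = 0.000665, exact permutation p = 0.0189) and 2.35 for *Abcg1* (limma adjusted p = 0.000536, exact permutation p = 0.00951), 2 of 4 called against 0.232% of genes. The remaining differences between tissues were 1.23 to 2.25 and did not pass (adjusted p from 0.0534 to 0.202). Without duodenum SBR vehicle replicate 3 all 4 passed for duodenum against liver (*Abcg1* 1.42, limma adjusted p = 0.0463, *Abcg5* 2.38, 0.00343, and *Abcg8* 2.25, 0.0215). Without ileum WUSTL0717 replicate 1 all 4 passed for ileum against liver (*Abcg5* 2.55, 0.0117, and *Abcg8* 2.72, 0.0102). Of 21 fits that left out 1 library, duodenum against liver was called in 2 for *Abcg1* (adjusted p up to 0.24), 2 for *Abcg5* (up to 0.224) and 1 for *Abcg8* (up to 0.427), and ileum against liver in 4 for *Abcg5* (up to 0.13) and 1 for *Abcg8* (up to 0.193). Since the batch correction rescaled the spread of each gene in intestine and liver separately, the size of these differences depends on it. Over all libraries the SD of *Abca1* was 1.92 in the intestine and 0.24 in the liver, and that of *Abcg1* 1.26 and 0.43. The limma fit used 1 spread per gene for intestine and liver together, so its p-values here rest on that pooled spread.

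**Figure D4:**
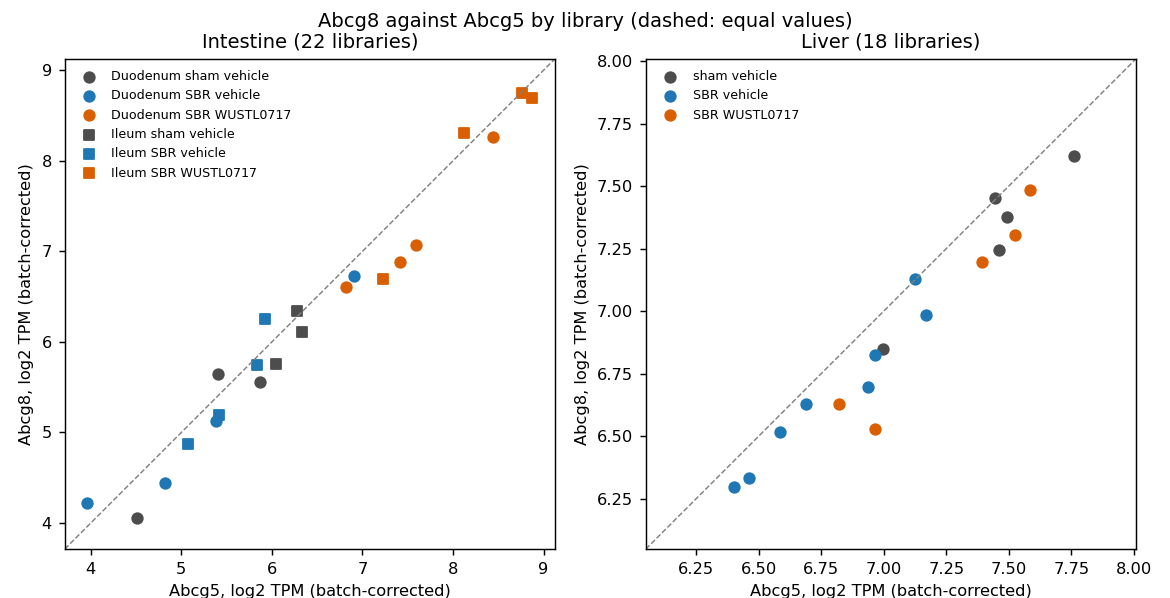
*Abcg8* against *Abcg5*, both as log2(TPM + 1), with 1 point per library for 22 intestinal and 18 liver libraries, coloured by group. The points follow a line in each panel, with Pearson's r of 0.98 over the intestinal libraries after centring each region and 0.97 over the liver libraries.

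*Abcg5* and *Abcg8*, whose products form the heterodimer, followed each other from library to library. Pearson's r was 0.98 over 22 intestinal libraries, after subtracting each region's mean, and 0.97 over 18 liver libraries, and within groups it was 0.95 and 0.96. Each was the gene most like the other among 14924 genes in the intestine and 15896 in the liver. The libraries share groups, depth and the batch correction, and these values are a description. The change in *Abcg8* minus *Abcg5* was tested in 12 comparisons by exact permutation, and 1 had an unadjusted p below 0.05, liver SBR WUSTL0717 against SBR vehicle (-0.12, p = 0.049). Group means of *Abcg8* minus *Abcg5* lay between -0.36 in treated duodenum and -0.05 in SBR vehicle ileum.

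The other pairs had r from 0.83 to 0.91 in the intestine over the same libraries. In the liver *Abca1* had r of 0.70 with *Abcg5* and 0.72 with *Abcg8*, while *Abcg1* had -0.35 and -0.37 with them and 0.18 with *Abca1*. Within liver groups the sign for *Abcg1* turned, to 0.47 with *Abcg5*, 0.45 with *Abcg8* and 0.59 with *Abca1*. The genes with the most similar intestinal pattern to *Abcg1* were *Srebf1*, an LXR target that encodes a regulator of lipid synthesis (r = 0.94), *Scd4* (0.91) and *Abcg5* (0.91). For *Abcg5* and *Abcg8*, after each other, they were *Lpcat3*, a phospholipid-remodelling enzyme and LXR target (0.92 with each), and *Srebf1* (0.91 with each). *Abca1* was most like *Abcg5* (0.91), *Ces2a* (0.90) and *Cyp2c55* (0.90). In the liver the closest genes to *Abcg1* were *Axl*, a receptor tyrosine kinase, *Arhgap19* and *Rasa4* (0.98 each), to *Abca1* *Arhgap26*, *Rbks* and *Fn1* (0.93 each), to *Abcg5* *Zcchc24* and *Mtfp1* (0.96 each) after *Abcg8*, and to *Abcg8* *Ftcd* and *Cyp2d36-ps* (0.94 each) after *Abcg5*.

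Other genes of the pathway were followed through lists of LXR and RXR receptors, HDL assembly and remodelling, cellular sterol uptake and storage, biliary lipid secretion, and other ABCA and ABCG genes. With WUSTL0717 against SBR vehicle in the ileum, 1 of 11 HDL genes passed, *Apoc1* (3.62 ± 0.49, SE, limma adjusted p = 0.0203), an apolipoprotein gene whose mean was 10.02 against 6.40. The HDL genes had a median difference of 0.87 with 9 of 11 above 0, where the median gene was at 0.00. Most hepatocyte markers also lay above 0 in this comparison, none called, with the highest sum in WUSTL0717 replicate 2 (11659 TPM). Their part in the HDL gene values was not tested. None of 5 receptor genes was called in the ileum (*Nr1h3*, which encodes LXRα, 1.13, adjusted p = 0.539, and *Rxrg* 0.86, 0.783), nor any of 18 cellular sterol, 5 biliary (*Slc10a1*, 2.45, adjusted p = 0.263, and *Abcc2*, 0.73, 0.876) or 9 other ABC genes. In the duodenum 1 of 18 cellular sterol genes passed, *Cd36*, a fatty acid and lipoprotein scavenger receptor (2.81 ± 0.44, adjusted p = 0.0167), and none of 4 receptor, 11 HDL, 5 biliary or 8 other ABC genes did. In the liver 1 of 11 HDL genes passed, *Lipc*, which encodes hepatic lipase (0.41 ± 0.11, adjusted p = 0.0453), where 4.12% of all genes were called, and none of the other lists had a called gene (*Rxra* 0.25 and *Abcb11*, the bile salt export pump gene, 0.36, adjusted p = 0.137 each). Each of these 3 calls was lost in fits that left out 1 library. *Apoc1* lost it without any of the 4 ileum SBR vehicle libraries or WUSTL0717 replicate 4, *Cd36* without duodenum SBR vehicle replicate 1 or 2 or WUSTL0717 replicate 3 or 4, and the HDL count in the liver ran from 0 to 3.

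**Figure D5:**
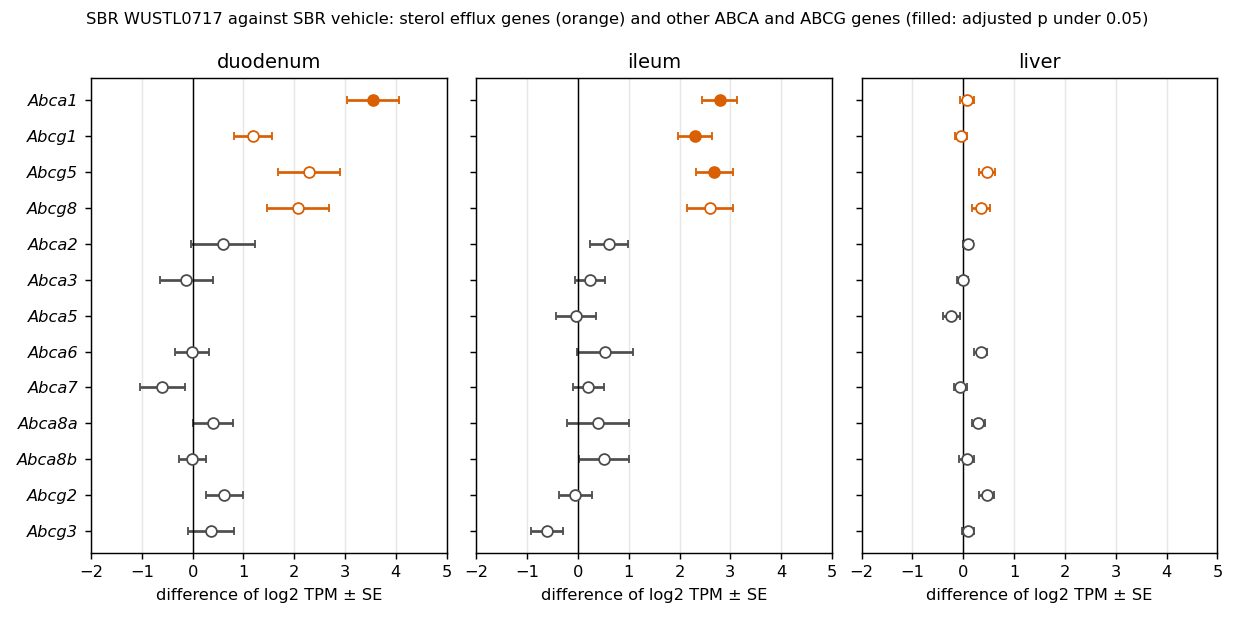
Difference in log2(TPM + 1) for SBR WUSTL0717 against SBR vehicle in duodenum, ileum and liver, for the 4 sterol efflux transporters and for the other ABCA and ABCG genes tested. In the ileum the transporters lie between 2.30 and 2.79, and the other ABC genes have a median of 0.24.

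The other ABCA and ABCG genes had median differences with WUSTL0717 of 0.18 (duodenum), 0.24 (ileum) and 0.08 (liver), none called. The largest liver value among them was that of *Abcg2*, which encodes an efflux pump for drugs and urate (0.46, limma adjusted p = 0.0828), followed by *Abca6* (0.34, 0.151) and *Abca8a* (0.29, 0.246). For resection the list genes named are those that passed, and in the liver 37.5% of all genes were called higher and 4.48% lower, with a split that centring moved as given above. There 4 of 9 rose (*Abca5* by 0.81, *Abca7* by 0.46, *Abcg3* by 0.44 and *Abca8b* by 0.43) and *Abca8a* fell by 1.06. Of the receptor genes *Nr1h2* (LXRβ) rose by 0.45 and *Rxrg* by 0.57, and of the biliary genes *Abcb4*, the phosphatidylcholine exporter of the canalicular membrane, rose by 0.50 while *Slc10a1*, the hepatocyte bile acid importer, fell by 1.00. Of the HDL genes *Apoa4* rose by 2.62, and *Apom* (-0.59), *Apoc1* (-0.52) and *Lipc* (-0.43) fell. In the cellular sterol list 9 of 18 rose and none fell. None of these list counts is set apart from the share of all genes by a test.

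Genes that lie beside the transporters on the chromosome were not called with WUSTL0717, 0 of 11 in duodenum, 0 of 10 in ileum and 0 of 12 in liver. Their differences ran from -0.75 to 0.96, from -0.34 to 0.64 and from -0.41 to 0.20. The nearest to *Abcg8* is *Lrpprc*, 4914 bases away. In the resected liver 4 of 12 neighbours were called, against 41.9% of all genes, *Tff2* (0.85), *AI427809* (0.42), *Thada* (0.31) and *Tff3* (-1.33).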

How the data were processed

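RNA-seq libraries (40, ribosomal RNA removed) from duodenum, ileum and liver were used. Per the labels and the study's methods, the authors aligned reads to GRCm38 with STAR, counted genes of Ensembl with featureCounts, scaled them by TMM, and deposited log2(TPM + 1) values after ComBat adjustment of the 2 batches, intestine and liver. The deposited log2 values run from -1.688 to 18.421, with 2752 below 0, and sums of TPM per library recomputed from them were 637575 to 863090 in duodenum, 618191 to 807702 in ileum and 686816 to 819788 in liver. Read depth is unknown, so no counting interval is given. From these values limma 3.58.1 (R 4.3.3, with variance trend) was fitted per tissue on the 3 groups, over all 6 intestinal groups for regions and over all 9 groups for differences between tissues, with genes whose mean log2 value reached 1, Benjamini-Hochberg adjustment and a threshold of 0.05. The study's own tests were Wilcoxon rank-sum tests and unpaired t-tests per gene, with a threshold on the fold change. The unmoderated two-sample test among the alternatives is close only to the t-test and used the gene filter given here. Its counts are therefore not those of the study. Exact two-sided permutation tests used scipy 1.17.1. The fits were tested on simulated data. Gene positions are from GENCODE M21 and sequences from RefSeq, which gave 3 of the 4 transporters. The transporters and the gene lists were chosen with earlier results of these data known. Genes named are the 4 transporters, of each pathway list those called with WUSTL0717 or else the 3 with the lowest p, genes of marker lists that passed or that stand beside a result, chromosomal neighbours, and the 3 genes most like each transporter by Pearson's r. Nothing in the labels says that libraries of a group came from separate animals, and p-values measure the spread between these libraries. Alternatives were other gene filters, pseudocounts of 0.1 and 5, median centring, no trend, library weights, a replicate block, and leaving out each library.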

Additional observations from a re-analysis of the deposited data

Results flagged for a closer look

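In 28 sets of 4 to 8 libraries (each transporter in each group of at least 4), 3 held a library far from the others by Dixon's gap. Chance marks about 1 in 20 sets, and all 3 were for *Abca1*. Duodenum SBR vehicle replicate 3 was the highest of its group at 4.12, with a gap of 0.907 of the group's range. Ileum SBR vehicle replicate 2 was the lowest of its group at 4.07, with a gap of 0.856. Liver sham vehicle replicate 2 was the lowest of its group at 5.66, with a gap of 0.725.

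The effect of WUSTL0717 against SBR vehicle differed between tissues in 3 tests of the difference itself (limma, Benjamini-Hochberg over all genes). For *Abca1* it was 3.48 larger in the duodenum than in the liver (adjusted p = 3.32e-06) and 2.72 larger in the ileum than in the liver (0.000665). For *Abcg1* it was 2.35 larger in the ileum than in the liver (0.000536). Exact permutation gave p = 0.0189, 0.0189 and 0.00951 for these 3 differences. The limma calls held in 21 of 21 fits that left out 1 library, each with a spread pooled over intestine and liver. Batch and tissue cannot be told apart in them.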

How the results depend on the processing

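With WUSTL0717 against SBR vehicle all 4 transporters stayed higher in duodenum and in ileum under every alternative run, and the calls changed as follows. Depth is unknown and its effect was not tested. Same-numbered libraries did not deviate together in every pair (median correlations of -0.01 in duodenum, -0.04 in ileum and -0.01 in liver). Between duodenum and ileum of a group the median was 0.08, 5 of 11 pairs were over 0.1 and 6 of 11 duodenal libraries were closest to their own number, a hint of shared mice that the labels do not give, and the region comparisons treat these libraries as independent. With the replicate block the ileal WUSTL0717 against SBR vehicle count was 0, with *Abca1* 2.79, *Abcg1* 2.30 and *Abcg5* 2.68 (limma adjusted p = 0.094 each), the ileal WUSTL0717 against sham count was 1, the ileal HDL count 0 and the liver cellular sterol count 1, and duodenal *Abcg5* and *Abcg8* after resection were -0.061 and -0.015. In the unmoderated two-sample test the counts of transporters were 0 for WUSTL0717 against SBR vehicle and against sham in duodenum and in ileum, with duodenal *Abca1* 3.55 and ileal *Abca1* 2.79, *Abcg1* 2.30 and *Abcg5* 2.68 no longer called (adjusted p = 0.186, 0.44, 0.557 and 0.557), 2 for sham regions and 3 for ileum against liver, and list counts were 0 for duodenal cellular sterol, ileal HDL and liver HDL genes. With library weights the counts were 2 in duodenum and 4 against sham in duodenum and in ileum, 1 for ileal resection, 3 for liver WUSTL0717 against sham, 2 for sham regions and 4 for either interaction with liver, duodenal *Abcg5* (2.70) and ileal *Abcg8* (2.47) became called, and list counts were 2 (duodenal cellular sterol), 3 (liver HDL), 1 (liver cellular sterol), 1 (liver biliary) and 2 (liver other ABC). Directions turned there for duodenal *Abcg5* (-0.63) and *Abcg8* (-0.50) and ileal *Abcg1* (-0.093) after resection, for liver *Abca1* against SBR vehicle (-0.12) and against sham (-0.16), and for the *Abcg5* difference between regions (0.20). After median centring the counts were 3 for duodenal and 4 for ileal WUSTL0717 against sham, 1 for liver WUSTL0717 against SBR vehicle and 3 against sham, 0 for regions under SBR vehicle, 2 for duodenum and 4 for ileum against liver, and list counts were 2 (duodenal cellular sterol), 2, 8, 4, 2 and 2 (liver receptor, HDL, cellular sterol, biliary and other ABC genes). Directions turned there for ileal *Abcg1* after resection (-0.047), liver *Abca1* against sham (-0.30), *Abcg5* (0.64) and *Abcg8* (0.55) between regions under SBR vehicle, and *Abca1* (0.0062) and *Abcg5* (0.20) under WUSTL0717. With a mean of at least 3, ileal *Abcg8* was called (2.60, adjusted p = 0.0374), the counts were 1 and 0 for regions under SBR vehicle and WUSTL0717 and 1 for ileum against liver, since *Abcg1* no longer entered, and the liver HDL count was 0. A pseudocount of 0.1 gave 2 for sham regions, and 5 gave 1 for regions under SBR vehicle. The cause of these changes was not tested except where stated.

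Leaving out 1 library, the counts ran from 0 to 4 for ileal WUSTL0717 against SBR vehicle and against sham, 1 to 2 and 1 to 3 for regions under SBR vehicle and WUSTL0717, and 1 to 4 and 2 to 4 for duodenum and ileum against liver. Ileal differences with WUSTL0717 ran from 2.60 to 3.09 for *Abca1*, 2.08 to 2.63 for *Abcg1*, 2.47 to 3.02 for *Abcg5* and 2.38 to 3.07 for *Abcg8*. Values that crossed 0 were duodenal *Abcg5* (-0.54 to 0.45) and *Abcg8* (-0.49 to 0.35) and ileal *Abcg1* (-0.11 to 0.12) after resection, liver *Abca1* after resection (-0.15 to 0.019), with WUSTL0717 (-0.014 to 0.13) and against sham (-0.082 to 0.067), *Abcg5* between regions under SBR vehicle (-0.84 to 0.14), and the *Abcg5* (-0.82 to 0.16) and *Abcg8* (-0.998 to 0.0072) differences in response between regions. List counts ran from 0 to 1 for duodenal cellular sterol, ileal HDL, and liver cellular sterol, biliary and other ABC genes, and 0 to 3 for liver HDL genes. The change of *Abcg8* minus *Abcg5* ran from -0.10 to 0.24 in duodenum and -0.025 to 0.21 in ileum after resection, -0.19 to 0.048 with WUSTL0717 in ileum, -0.33 to 0.018 and -0.094 to 0.15 against sham in duodenum and ileum, and in liver from -0.014 to 0.042, -0.15 to -0.065 and -0.14 to -0.056 in these 3 comparisons.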
